A study of Schmidtea mediterranea with 18 samples.

Results

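The transcripts described here were those that were lower in *hippo (RNAi)* planarians from the third week of inhibition onwards while they were still near the control level after 1 week. They were chosen by their own values. The effect of each transcript at each week was written as the difference between the log2 of the mean *hippo (RNAi)* TPM plus 1 and the log2 of the mean control TPM plus 1, where TPM is the length-corrected share of a transcript in its library. A member averaged 5 TPM or more across all 18 libraries, an effect of -0.58 or lower at both 3 and 4 weeks, every *hippo (RNAi)* library below every control library in both of those weeks, and an effect above -0.3 at 1 week. Transcripts that belong to the cell cycle genes listed in the supplement of the study were left out, although 0 of them met the other conditions. The 20 genes in that list were taken by their most abundant transcript. Of these, 5 were below controls without overlap in both late weeks and 10 were above. Over all transcripts that reached 5 TPM the shares were 12.2% and 20.4%. The study had picked these genes because they changed in the same sequencing, so the comparison carries no support. The list also holds transcripts under 5 TPM, such as that of mAChR (2.46 TPM). Of 41745 transcripts in the table, 15250 reached the minimum level and 76 met the whole rule, which is 0.499% of the 15230 that could be chosen. The members came from 64 assembly numbers, the number that follows dd_Smed_v6 in each identifier and that groups transcripts assembled together.

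The Hippo pathway is a kinase cascade in which Hippo, with its partner Salvador, activates Warts, and Warts with Mob phosphorylates the transcriptional co-activator Yorkie and keeps it out of the nucleus. In many animals the pathway restrains growth and links cell number to cell fate. Planarians are flatworms that renew all of their tissues throughout life from neoblasts, the dividing adult stem cells, and in this animal *hippo* is studied for its part in cell cycle control, cell death and the maintenance of the differentiated state.

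Whole, intact *Schmidtea mediterranea* of the asexual clonal line BCN-10 were starved and injected with double-stranded RNA against *hippo*, or, as controls, against *gfp*, which has no planarian counterpart. Starvation, injection and the clonal background were thus shared by all groups. Poly(A) RNA was sequenced after 1, 3 and 4 weeks, with 3 libraries for each treatment and week, each from a pool of 5 animals. The table pairs no gene name with an identifier, so the level of *hippo* itself, the identity of the members and markers of any tissue were not analysed here, and members are named by identifier with no role given to them. The count of reads behind a TPM value is unknown, because TPM keep no depth.

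The members were together a visible part of the RNA of the animals. Their summed TPM at 1 week was 29520, 27264 and 29389 in the 3 control libraries and 26989, 23154 and 23691 in the 3 *hippo (RNAi)* libraries. At 3 weeks it was 27289, 27969 and 29016 in controls against 15541, 15413 and 16146 in *hippo (RNAi)* animals. The groups lay apart at 1 week by a small margin and at 3 weeks by a wide one. At 4 weeks the controls held 29374, 31458 and 32101 and the *hippo (RNAi)* animals 17023, 15823 and 19174. As a share of all TPM the members made up 2.87% ± 0.127, 2.81% ± 0.0870 and 3.10% ± 0.143 of the control libraries at 1, 3 and 4 weeks, and 2.46% ± 0.208, 1.57% ± 0.0392 and 1.73% ± 0.170 of the *hippo (RNAi)* libraries (SD, n = 3). The rule used these values, so the gap is a description with no test. In RNA from whole animals, fewer cells of a type and less RNA per cell cannot be told apart.

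**Figure D1:**
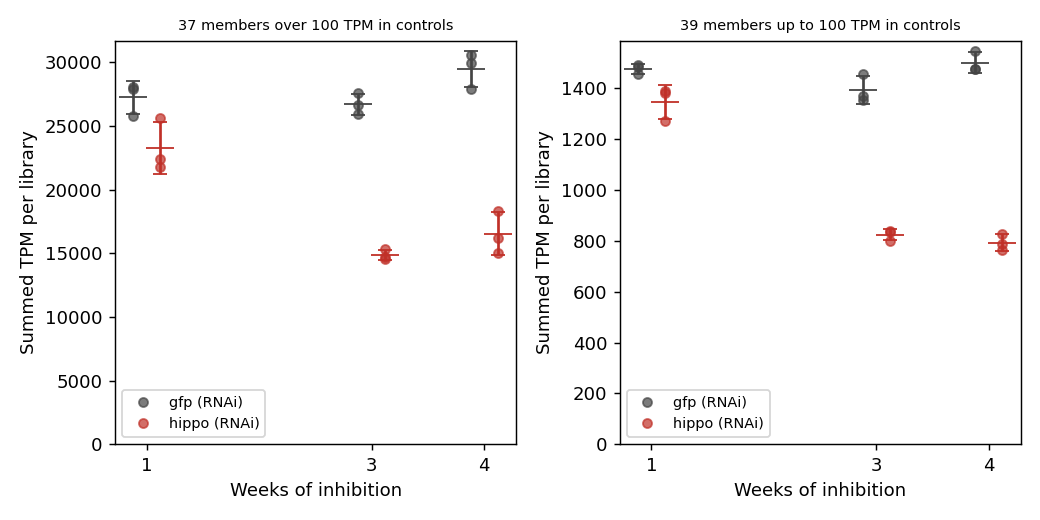
Summed TPM of the members in each library (y axis, from 0) against weeks of inhibition (x axis), for the 37 members whose control mean was over 100 TPM (left) and the 39 at or under it (right); points are libraries, horizontal lines group means and bars 1 SD (n = 3). In both panels the *hippo (RNAi)* points lie below the control points without overlap, by a small margin at 1 week and far below them at 3 and 4 weeks.

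The members were more abundant than most transcripts, although the rule asked only for a minimum of 5 TPM. The median of their mean control TPM was 92.6, with a range from 5.99 to 3612, against a median of 15.8 for all transcripts that reached the minimum. It was 54.9 for the 55 transcripts that met the same conditions at 3 and 4 weeks but were already at or below -0.3 at 1 week. For the 232 transcripts of the mirrored rule, which were higher at 3 and 4 weeks and near the control level at 1 week, it was 15.2. Of the members, 37 (48.7%) had a control mean over 100 TPM, compared with 1290 (8.46%) of all transcripts that reached the minimum. Over 1000 TPM the counts were 11 (14.5%) and 153 (1.00%), and 4 members were among the 100 most abundant transcripts of the controls. Whether the requirement of no overlap between groups favours abundant transcripts was not tested.

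The effect was of moderate size in most members. Its median was -0.72 at 3 weeks (range -1.32 to -0.59) and -0.77 at 4 weeks (range -1.65 to -0.60), while the medians over all transcripts that reached the minimum were 0.02 and 0.03. In TPM, *hippo (RNAi)* animals held a median of 59.5% of the control level at 3 weeks (37.3% to 66.5%) and 57.5% at 4 weeks (28.9% to 65.6%). An effect of -1 or lower was reached by 4 members at 3 weeks, by 10 at 4 weeks and by 2 in both weeks. At 4 weeks the effect was lower than at 3 weeks in 48 members and higher in 28, and in 44 of the 76 the weeks differed by less than 0.1.

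A fit across transcripts with limma, the linear models with a shared variance trend, gave the background for these counts. Of 28735 transcripts tested, 5.27% were called lower at 3 weeks and 8.54% at 4 weeks at a Benjamini-Hochberg adjusted p of 0.05. The members called lower numbered 72 of 76 at 3 weeks and 73 at 4 weeks, which the rule made likely and from which nothing is read. The 4 that missed the threshold at 3 weeks were dd_Smed_v6_331_0_1, dd_Smed_v6_1530_0_1, dd_Smed_v6_57_0_1 and dd_Smed_v6_1574_6_107, and the last 3 of these missed it at 4 weeks as well.

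Values close to the limits of the rule show how the group shades into its neighbours. At 3 weeks the member nearest to the limit was dd_Smed_v6_279_0_1, with an effect of -0.59, and the nearest transcript outside was dd_Smed_v6_924_0_3, with -0.57. A total of 45 transcripts failed this condition alone. At 4 weeks the corresponding values were -0.60 for dd_Smed_v6_5964_0_1 and -0.58 for dd_Smed_v6_851_0_1, and 18 transcripts failed there alone. The limit at 1 week passed between dd_Smed_v6_72_0_1 and dd_Smed_v6_13672_0_1, both at -0.30 when rounded, so the border between members and the 55 early falls is a narrow one. On level, dd_Smed_v6_1574_6_107 was the member of lowest mean, 5.13 TPM, and dd_Smed_v6_17160_0_6, with 4.68 TPM, was the nearest of 26 that failed on level alone.

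Most members were already slightly lower after 1 week. The effect at 1 week had a median of -0.20 (range -0.30 to 0.27). It was negative in 69 members (90.8%), against 44.3% of all transcripts that reached the minimum, and at or below -0.2 in 38. In 22 members every *hippo (RNAi)* library was below every control library at 1 week, which was the case for 6.9% of all transcripts that reached the minimum. The limma fit called 0.195% of all transcripts tested lower at 1 week and 1 member, dd_Smed_v6_1114_0_1. This transcript had 215, 225 and 222 TPM in controls and 190, 197 and 181 TPM in *hippo (RNAi)* animals at 1 week. The groups did not overlap, and the difference in mean log2(TPM + 1) was -0.22 ± 0.05 (SE, n = 3, limma with Benjamini-Hochberg adjustment, adjusted p = 0.039). The count of 1 was not stable. It was 0 when any of control libraries 249, 250, 251, 257, 258, 259 and 261 or *hippo (RNAi)* libraries 253, 254, 264 and 267 was left out, 2 without library 252, and 3 without library 268 or without library 269. At 3 weeks the same transcript had 222, 224 and 224 TPM in controls and 124, 137 and 126 TPM in *hippo (RNAi)* animals. The rule used the values at 1 week to limit how far a transcript could be below controls, so these counts describe the members and carry no support.

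The 7 members with a positive effect at 1 week were of low or middle level. dd_Smed_v6_1543_0_5 had the highest, 0.27, with 9.00, 9.91 and 7.50 TPM in controls and 12.5, 12.3 and 7.61 TPM in *hippo (RNAi)* animals. The groups overlapped, since 1 of the 3 *hippo (RNAi)* libraries was at the low end of the controls. At 4 weeks it had 8.76, 6.56 and 8.02 TPM in controls and 4.83, 3.34 and 5.57 TPM in *hippo (RNAi)* animals. Next were dd_Smed_v6_9391_0_1 with 0.16 and dd_Smed_v6_5964_0_1 with 0.14.

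**Figure D2:**
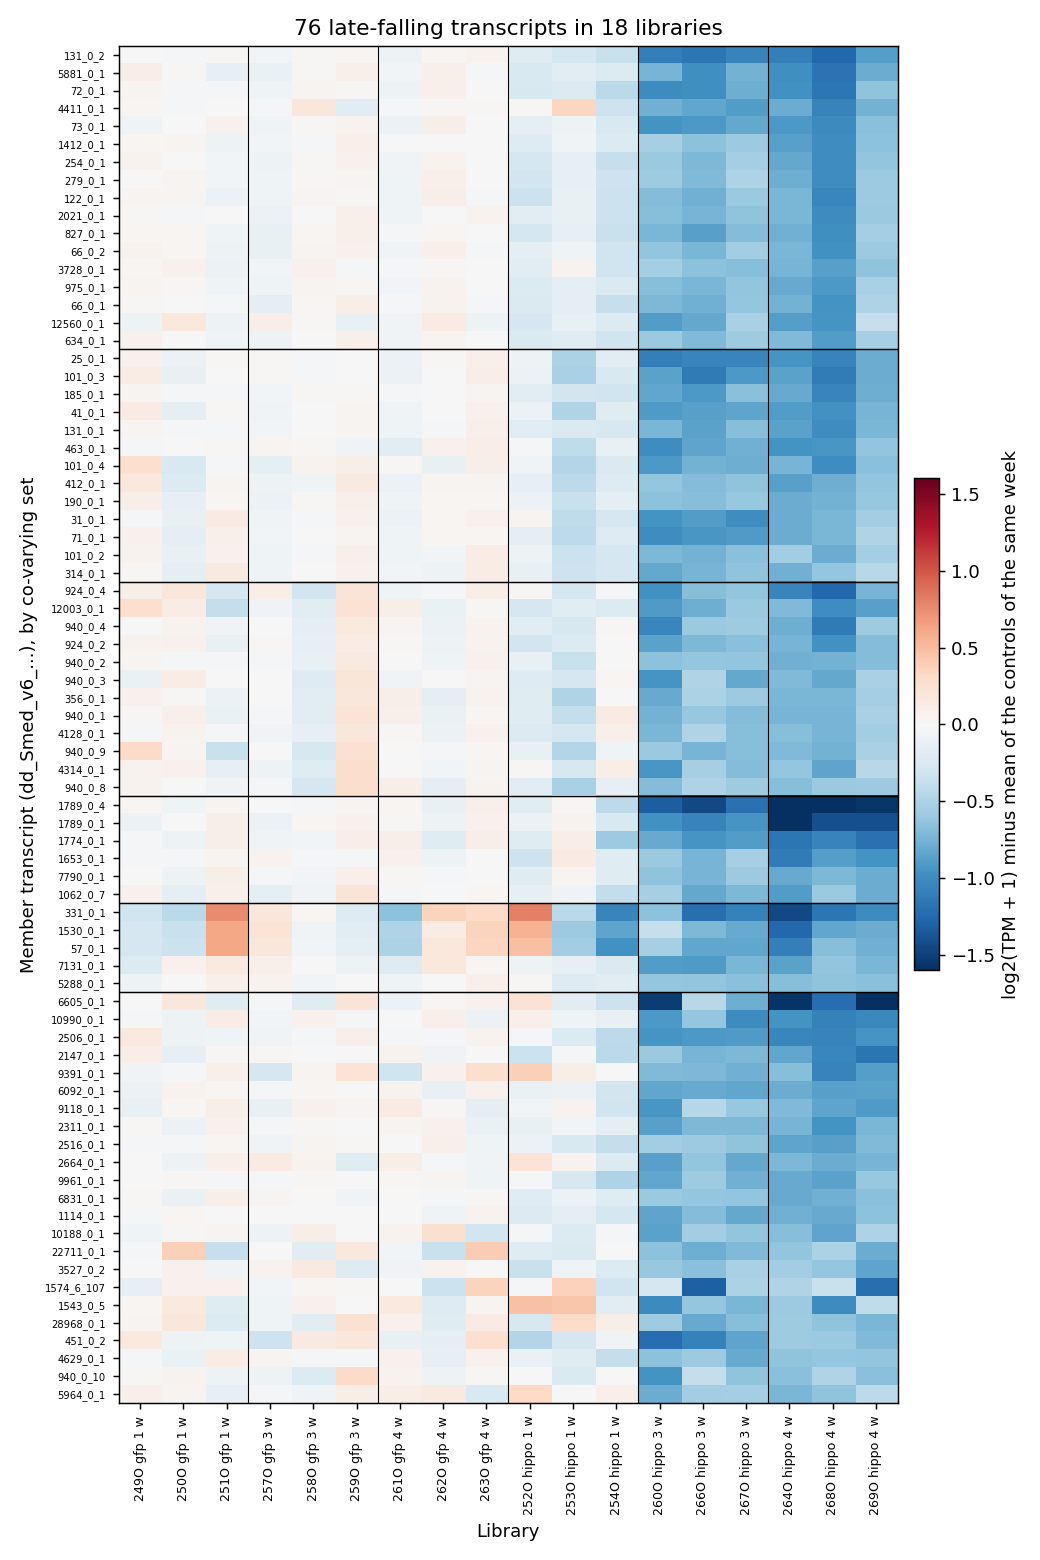
Log2(TPM + 1) of each member (one line per transcript) relative to the mean of the 3 control libraries of the same week, in each of the 18 libraries (columns, grouped by treatment and week; blue is lower, red higher). Black lines part the 5 sets of members that deviate together, set 1 at the top, from each other and from the members in no set. The *hippo (RNAi)* columns of 3 and 4 weeks are below the controls throughout, and those of 1 week lie between them and the controls for most members.

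The most abundant members came down from among the highest levels in the animal. dd_Smed_v6_25_0_1, the member of the highest control mean, had 3496, 3139 and 3388 TPM in controls and 3158, 2352 and 2936 TPM in *hippo (RNAi)* animals at 1 week, where the groups overlapped. At 3 weeks it had 3660, 3582 and 3606 TPM in controls and 1689, 1735 and 1732 TPM in *hippo (RNAi)* animals. The libraries of each group lay close together at that time, and the groups were far apart. At 4 weeks the controls had 3614, 3917 and 4102 TPM and the *hippo (RNAi)* animals 2007, 1851 and 2238 TPM, and the effects at 1, 3 and 4 weeks were -0.25, -1.07 and -0.93. dd_Smed_v6_41_0_1 followed closely, with effects of -0.25, -0.87 and -0.86. For dd_Smed_v6_31_0_1 the gap was wider at 3 weeks (-0.95) than at 4 weeks (-0.69). Its *hippo (RNAi)* libraries had 785, 823 and 763 TPM at 3 weeks and 944, 992 and 1115 TPM at 4 weeks, so that the groups of the 2 weeks did not overlap. dd_Smed_v6_66_0_2, dd_Smed_v6_131_0_1 and dd_Smed_v6_185_0_1 complete the 6 of highest level.

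Of the 3 lowest effects at 4 weeks, 2 belonged to transcripts of assembly number 1789. dd_Smed_v6_1789_0_1 had 89.0, 95.3 and 102 TPM in controls and 89.2, 98.6 and 79.9 TPM in *hippo (RNAi)* animals at 1 week. At 3 weeks it had 79.4, 86.7 and 89.3 TPM in controls and 43.1, 40.1 and 43.7 TPM in *hippo (RNAi)* animals. The treatments were mixed at 1 week and far apart at 3 weeks. At 4 weeks the controls had 96.2, 89.9 and 100.1 TPM and the *hippo (RNAi)* animals 30.6, 35.2 and 35.2 TPM. The effect went from -0.09 through -0.99 to -1.48, and the difference between the effects of 4 and 3 weeks was -0.49 ± 0.11 on the limma scale (SE, described without a test). dd_Smed_v6_1789_0_4 was lower in level and had the lowest effect of all members at both times, -1.32 and -1.65. Its *hippo (RNAi)* libraries had 6.32, 6.82 and 7.32 TPM at 4 weeks, against 24.0, 21.6 and 25.0 TPM in controls.

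dd_Smed_v6_6605_0_1 had the most different effects in the 2 late weeks. At 3 weeks it had 48.6, 42.8 and 56.9 TPM in controls, and its *hippo (RNAi)* libraries had 16.4, 35.8 and 28.1 TPM. At 4 weeks it had 50.9, 55.7 and 57.4 TPM in controls and 17.8, 22.8 and 13.1 TPM in *hippo (RNAi)* animals. The *hippo (RNAi)* libraries were spread at 3 weeks, and the lowest of them was within the range of the 4-week libraries. The effect was -0.86 at 3 weeks and -1.56 at 4 weeks, but without libraries 266 to 269, which leaves 1 *hippo (RNAi)* library in each of these weeks, the values were -1.53 and -1.57, so the difference between the weeks rested on those libraries. dd_Smed_v6_1774_0_1 and dd_Smed_v6_131_0_2 also belonged to the 6 lowest effects at 4 weeks.

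dd_Smed_v6_331_0_1 met the rule although its libraries varied more than those of most members. At 1 week its controls had 575, 533 and 1213 TPM and its *hippo (RNAi)* libraries 1257, 533 and 345 TPM. At 4 weeks it had 391, 795 and 763 TPM in controls and 227, 277 and 307 TPM in *hippo (RNAi)* animals. The spread among libraries of a group at 1 week was thus larger than the gap between groups at 4 weeks. Its effects at 3 and 4 weeks were -0.97 and -1.26.

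**Figure D3:**
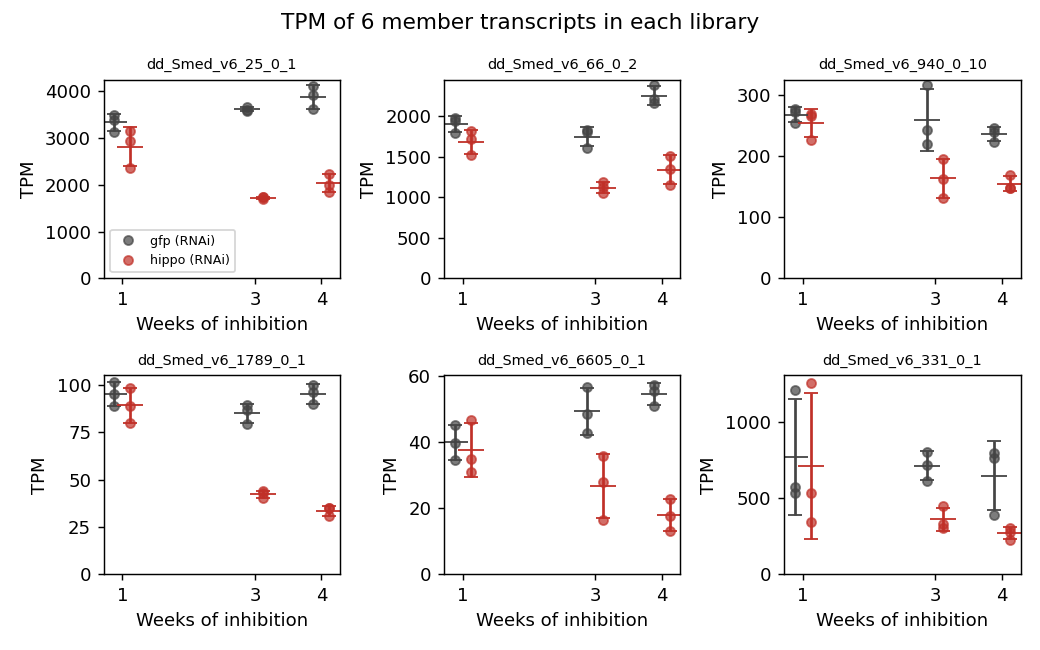
TPM of 6 members in each library (points; y axes from 0) against weeks of inhibition (x axis), with group means as horizontal lines and 1 SD as bars (n = 3). The treatments overlap at 1 week and are apart at 3 and 4 weeks in each panel, and dd_Smed_v6_331_0_1 has the widest scatter at 1 week.

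**Figure D4:**
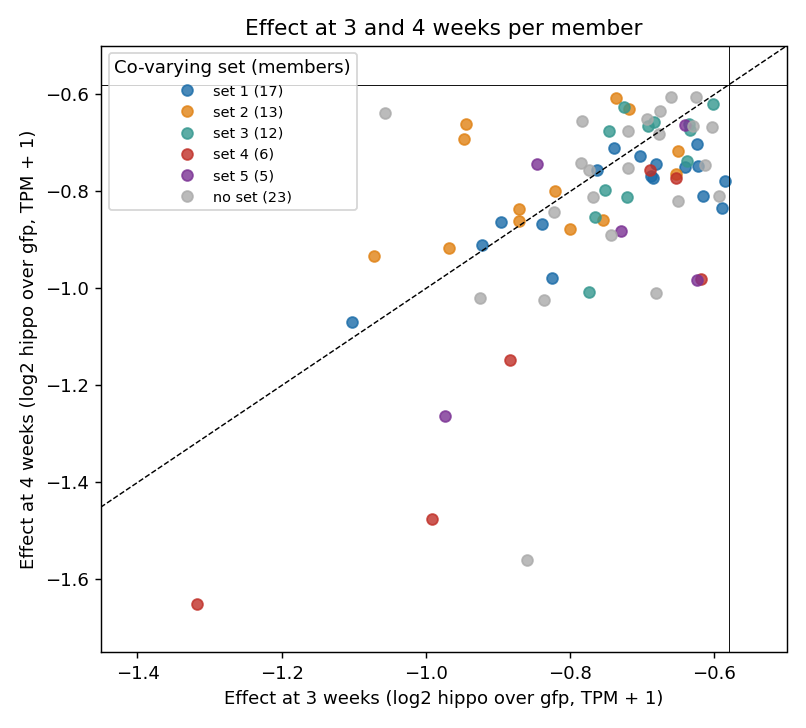
Effect at 4 weeks (y axis) against effect at 3 weeks (x axis) for each member, both as the log2 ratio of mean TPM plus 1, coloured by the set of members that deviate together; thin lines mark the limit of -0.58 and the dashed line equal effects. Most points lie near the dashed line, and all 6 members of set 4 lie below it.

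The course of the members within each treatment was compared between 1 and 4 weeks, since the starved controls may also change with time. Both comparisons used libraries that the rule had used, so they are given as a description. The rule limited the effect at both 1 and 4 weeks. Where controls changed little, a lower level in *hippo (RNAi)* animals at 4 weeks than at 1 week was therefore largely built in. In controls the change of mean log2(TPM + 1) from 1 to 4 weeks had a median of 0.05 over the members (range -0.38 to 0.63), with 44 upward and 32 downward, against a median of -0.01 over all transcripts that reached the minimum. The limma fit called 0 members lower in controls at 4 weeks than at 1 week, where the share of all transcripts tested was 0.508%, and 0 members higher, where it was 0.505%. At an unadjusted p under 0.05 the counts were 4 lower and 13 higher, where all transcripts tested gave 7.59% lower and 5.17% higher. The count of members called higher was 1 without control library 249, 250 or 259 or *hippo (RNAi)* library 253, 254 or 268, and 2 without *hippo (RNAi)* library 252 or 269. In *hippo (RNAi)* animals the median change was -0.53 (range -1.54 to -0.05), and all 76 values were negative. The limma fit called 67 members (88.2%) lower in *hippo (RNAi)* animals at 4 weeks than at 1 week, against 5.44% of all transcripts tested. The 4 *hippo (RNAi)* libraries numbered 266 to 269 carry the highest library numbers. Without them this comparison rested on 1 *hippo (RNAi)* library at 4 weeks, and fewer of the members were called lower.

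Control values at 4 weeks were above those at 1 week in most of the abundant members. Among the 37 members over 100 TPM, 25 were higher in controls at 4 weeks than at 1 week, with a median change of 0.10, while the median in *hippo (RNAi)* animals was -0.46. Among the 39 at or under 100 TPM, 19 were higher in controls, with a median of -0.01, and the median in *hippo (RNAi)* animals was -0.64. The share of all transcripts with higher control values at 4 weeks was not computed, so these counts describe the members only. The median control change over all transcripts that reached the minimum was -0.01. None of the control changes of single members passed the adjusted threshold in the limma fit. The limits of the rule at 1 and 4 weeks put the *hippo (RNAi)* change below the control change, so the next count was largely built in. The size of the *hippo (RNAi)* change exceeded that of the control change in 75 of the 76 members.

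The exception was dd_Smed_v6_28968_0_1. Its controls had 12.2, 13.5 and 10.0 TPM at 1 week and 19.8, 16.4 and 20.8 TPM at 4 weeks. Its *hippo (RNAi)* libraries had 9.71, 14.7 and 12.7 TPM at 1 week and 12.4, 11.8 and 11.0 TPM at 4 weeks. The control groups did not overlap between the weeks, while the *hippo (RNAi)* groups did. The change was 0.63 in controls (SE 0.14, n = 3, limma with Benjamini-Hochberg adjustment, adjusted p = 0.0506) and -0.05 in *hippo (RNAi)* animals, so the level differed between the weeks in controls more than in *hippo (RNAi)* animals. Without *hippo (RNAi)* library 253 the latter change was 0.07, and without libraries 266 to 269 it was 0.02. dd_Smed_v6_9391_0_1 and dd_Smed_v6_6605_0_1 had the next highest control changes, 0.49 and 0.45, with *hippo (RNAi)* changes of -0.55 and -1.04.

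At the other end, dd_Smed_v6_57_0_1, dd_Smed_v6_9118_0_1 and dd_Smed_v6_940_0_8 had the lowest control changes, -0.38, -0.38 and -0.35. dd_Smed_v6_9118_0_1 had 24.0, 26.5 and 27.8 TPM in controls at 1 week and 21.8, 20.1 and 17.9 TPM at 4 weeks. Its *hippo (RNAi)* libraries had 25.3, 27.1 and 20.7 TPM at 1 week and 11.8, 10.6 and 10.1 TPM at 4 weeks. The level was thus lower at 4 weeks in both treatments, and the *hippo (RNAi)* change was -1.09.

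**Figure D5:**
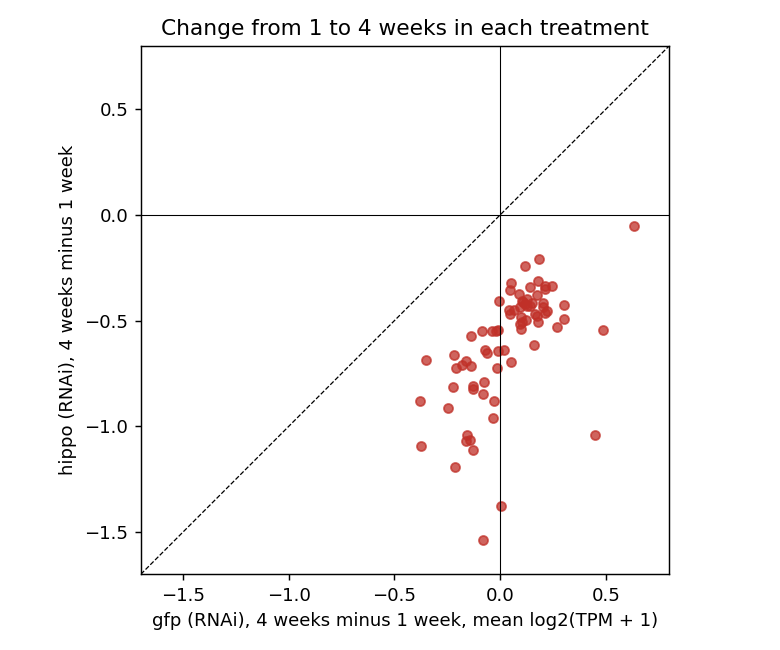
Change of mean log2(TPM + 1) from 1 to 4 weeks in *hippo (RNAi)* animals (y axis) against that in controls (x axis), one point per member; the dashed line marks equal changes. Every point lies below 0 on the y axis, and the points spread to both sides of 0 on the x axis between -0.38 and 0.63.

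Members differed in how they varied among libraries of one group. The rule used this spread in part, since it asked for no overlap between groups at 3 and 4 weeks. For each member the deviation of each library from its own group mean was taken on the log2(TPM + 1) scale, and members were joined by the correlation of these deviations over the 18 libraries. The grouping was made after the values had been seen and carries no test. The median correlation over all pairs of members was 0.15, and it was 0.33 among the 37 members over 100 TPM and 0.08 among the 39 at or under it. At a linkage distance of 0.5, 53 members fell into 5 sets of at least 5 and 23 into none. All correlations share the same 18 libraries. Correlations among other transcripts of like level were not computed, so these values cannot be set against a background.

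Set 1 held 17 members with a median correlation of 0.84 and a median control level of 270 TPM, among them dd_Smed_v6_66_0_2, dd_Smed_v6_72_0_1 and dd_Smed_v6_131_0_2. Its median effects were -0.22, -0.69 and -0.77 at 1, 3 and 4 weeks. At 4 weeks its members were low in *hippo (RNAi)* library 268 (median deviation -0.20) and high in library 269 (0.19). Set 2 held 13 members of higher level, with a median of 858 TPM, including dd_Smed_v6_25_0_1, dd_Smed_v6_41_0_1, dd_Smed_v6_31_0_1 and the 3 members of assembly number 101. Its median effects were -0.25, -0.82 and -0.80, and its *hippo (RNAi)* libraries at 1 week were spread, with 0.15 in library 252 and -0.16 in library 253. At 4 weeks set 2 deviated in the same direction as set 1, with -0.10 in library 268 and 0.13 in library 269, whereas in library 253 the median was -0.16 in set 2 and 0.10 in set 1. Sets 1 and 2 had the highest median levels of the 5 sets.

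Set 3 held 12 members with a median correlation of 0.72 and a median control level of 85.0 TPM, of which 6 were transcripts of assembly number 940 and 2 of number 924. Its median effects were -0.15, -0.71 and -0.67. Set 4 held 6 members, namely dd_Smed_v6_1062_0_7, dd_Smed_v6_1653_0_1, dd_Smed_v6_1774_0_1, dd_Smed_v6_7790_0_1 and both members of number 1789. Its median effects were -0.15, -0.79 and -1.06, and all 6 members had a lower effect at 4 weeks than at 3 weeks, by a median of -0.30. dd_Smed_v6_1653_0_1 was 1 of them, with -0.62 at 3 weeks and -0.98 at 4 weeks. Its *hippo (RNAi)* libraries had 54.1, 48.8 and 56.5 TPM at 3 weeks and 44.7, 52.8 and 49.9 TPM at 4 weeks, which overlapped, while its controls had 85.7, 80.6 and 80.0 TPM at 3 weeks and 103, 92.5 and 98.3 TPM at 4 weeks, which did not. Members of set 4 were high in *hippo (RNAi)* library 253 at 1 week (median deviation 0.18) and low in library 254 (-0.18).

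Set 5 held 5 members, dd_Smed_v6_331_0_1, dd_Smed_v6_57_0_1, dd_Smed_v6_1530_0_1, dd_Smed_v6_5288_0_1 and dd_Smed_v6_7131_0_1, with a median correlation of 0.84. The first 3 of them deviated by far more than members of the other sets, and the last 2 did not. The median deviation was 0.61 in control library 251 and 0.83 in *hippo (RNAi)* library 252 at 1 week, with -0.55 in *hippo (RNAi)* library 254, and -0.48 in control library 261 at 4 weeks. The smallest deviation of any member was 0.07 in library 252 and -0.07 in library 261, and these belonged to different members. Their median effects were -0.15, -0.73 and -0.88. A further 9 transcripts that were not members followed the median of this set with a correlation of at least 0.9, and of these 3 were lower in *hippo (RNAi)* animals at both 3 and 4 weeks, while the median effect of the 9 was -0.26 at 3 weeks and 0.74 at 4 weeks. Of the 4 members that missed the limma threshold at 3 weeks, 3 belong to this set.

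Transcripts of one assembly number can share sequence, and the program that gave the TPM can divide reads between them, so levels were also summed over each number. Of the 64 numbers, 50 had a single transcript in the table and 14 had several. The sum met the limits at 3 and 4 weeks, with no overlap, for 61 of the 64 numbers and for 11 of the 14 with several transcripts. For the 50 numbers with a single transcript the sum is the member itself, so the rule fixed that outcome. Among the 11, the share of the sum held by members ran from 3.56% in number 451 to 100% in numbers 66 and 131. Where that share was high, the outcome was largely built in as well. The 192 other transcripts of these numbers were mostly scarce, and 45 of them reached 5 TPM. The median effects of those 45 at 3 and 4 weeks were -0.16 and -0.22, and 29 of them were lower at both weeks. In 10 of them every *hippo (RNAi)* library was below every control library in both weeks. Over all transcripts that reached 5 TPM the share without overlap was 12.2%, and the share lower at both weeks was not computed. Number 1574 alone had 26 transcripts at 5 TPM or more, its member included.

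Assembly number 940 held the most members, 7 of its 10 transcripts, which made up 92.4% of its summed TPM. The sum had group means of 1003, 922 and 873 TPM in controls and 897, 580 and 558 TPM in *hippo (RNAi)* animals at 1, 3 and 4 weeks. Its effects were -0.16, -0.67 and -0.64, and of its other transcripts dd_Smed_v6_940_0_5 was at -0.62 and -0.46 in the late weeks. Number 101 had 3 members of 4 transcripts and summed effects of -0.26, -0.85 and -0.81. Number 66 had both of its transcripts among the members, with summed effects of -0.20, -0.66 and -0.74, and so had number 131, with -0.25, -0.91 and -0.96.

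In numbers 1789 and 924 the members differed from the other transcripts in size. The other transcripts dd_Smed_v6_1789_0_2 and dd_Smed_v6_1789_0_3 had effects of -0.31 and -0.56 at 4 weeks, where the members had -1.48 and -1.65, and the sum was at -1.11. In number 924 the members dd_Smed_v6_924_0_2 and dd_Smed_v6_924_0_4 had -0.80 and -1.01 at 4 weeks, and the other transcripts dd_Smed_v6_924_0_1 and dd_Smed_v6_924_0_3 had -0.65 and -0.59. All 4 transcripts of number 924 were below controls without overlap in both late weeks, so the limit of the rule separated transcripts of one direction.

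The sum missed the limits of the rule for numbers 1574, 1062 and 1543. For 1062 and 1543 it was still below controls without overlap in both late weeks, and for 1574 it was not. Number 1574 had 167 transcripts, its member made up 0.963% of the sum, and the sum had an effect of -0.16 at 3 weeks. For number 1543 the member made up 4.44% of a sum with effects of -0.31 and -0.34. In number 1062 the sum was at -0.21 and -0.34, and its other transcripts over 5 TPM went both ways at 3 and 4 weeks. dd_Smed_v6_1062_0_4, with a control mean of 0 TPM at 3 weeks, was at 3.93 and 1.36. dd_Smed_v6_1062_0_6 was at 0.19 and 1.06, and dd_Smed_v6_1062_0_3 at 1.34 and -0.10. dd_Smed_v6_1062_0_1 was at -0.03 and 0.20, and dd_Smed_v6_1062_0_2 at -0.24 and -0.22. dd_Smed_v6_451_0_2, with -1.06 at 3 weeks and -0.64 at 4 weeks, made up 3.56% of number 451, whose sum was already at -0.58 at 1 week.

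The libraries of the late *hippo (RNAi)* groups are not numbered in sequence, with 260 beside 266 and 267 at 3 weeks and 264 beside 268 and 269 at 4 weeks. Library 260 was the lowest of its group in 33 members and the highest in 20, with a median difference of -0.01 from the mean of the other two on the log2 scale. Library 264 was the lowest in 22 and the highest in 10, with a median difference of -0.02. The corresponding medians over all transcripts that reached the minimum were -0.01 and 0.00. The counts of lowest and highest libraries were not made over all transcripts, so they describe the members only. With libraries 266 to 269 left out, the rule, which then rests on 1 *hippo (RNAi)* library in each late week, gave 95 transcripts, of which 65 were among the 76.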

How the data were processed

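The deposited table holds TPM (length-corrected transcript shares) for 41745 transcripts in 18 libraries; per the sources, the authors quantified reads with kallisto 0.43.0 on the dd_Smed_v6 transcriptome, and the authors also used sleuth and DESeq2. TPM are relative to each library, so a few abundant transcripts can move the rest, and the depth behind a value is unknown. Groups came from the labels, and no column was left out. From the TPM, effects and the rule were computed with Python 3.11.15. limma 3.58.1 (R 4.3.3, trend) was fitted to log2(TPM + 1) over 6 group means and 28735 transcripts averaging 1 TPM or more, with Benjamini-Hochberg adjustment at 0.05, after a test on simulated data. The sources do not say that the pools of one group were injected separately, so p-values measure the spread between these libraries, which may be technical. The members and lists were chosen with earlier results of these data known. Members named singly were the 6 of highest control level, the 6 lowest effects at 4 weeks, the 3 whose effect fell or rose most from 3 to 4 weeks, the 3 with the highest and lowest control changes, the members of the assembly numbers with most members (940, 101 and 66, the last tied with 3 others), and those next to a limit; others were named after their values were seen. Alternatives were other pseudocounts, scalings, filters and models, and leaving out libraries.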

Additional observations from a re-analysis of the deposited data

How the results depend on the processing

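The number of transcripts that met the rule was 2 with a limit of -1 for the late effects and 7 with a limit of 0 at 1 week; under the other settings it lay between 56 (pseudocount of 5) and 102 (no minimum level), and it was 58 to 85 with single libraries left out. A total of 32 members met the rule whichever library was left out. Members called lower at 1 week numbered 0 with no filter, with only the groups compared and with array weights, 4 without *hippo (RNAi)* libraries 266 to 269, and 0 to 3 with single libraries left out. Members called higher in controls at 4 weeks numbered 1 with a pseudocount of 5, with median-ratio scaling, with a mean of at least 5 TPM and without libraries 266 to 269, and 0 to 2 with single libraries left out. Members called lower in *hippo (RNAi)* animals at 4 weeks than at 1 week numbered 44 without libraries 266 to 269 and 56 to 68 with single libraries left out. The counts called lower at 3 and 4 weeks were 70 to 72 and 70 to 75 with single libraries left out. Without libraries 266 to 269 the effect at 3 weeks went from -0.65 to -0.93 for dd_Smed_v6_9118_0_1. For dd_Smed_v6_940_0_4 it went from -0.72 to -1.04. Changes of direction occurred only in differences that passed no threshold. The largest of these in the main fit was the control change of dd_Smed_v6_331_0_1, -0.22 with an SE of 0.41. In controls from 1 to 4 weeks, dd_Smed_v6_1789_0_1 was at -0.000668 with array weights and dd_Smed_v6_71_0_1 at 0.0013 with median-ratio scaling and 0.020 with array weights. With single libraries left out, the control change was -0.045 to 0.049 for dd_Smed_v6_1789_0_1, -0.081 to 0.040 for dd_Smed_v6_71_0_1, -0.43 to 0.16 for dd_Smed_v6_331_0_1, -0.066 to 0.011 for dd_Smed_v6_1653_0_1, -0.020 to 0.20 for dd_Smed_v6_451_0_2, -0.067 to 0.046 for dd_Smed_v6_940_0_3 and -0.31 to 0.014 for dd_Smed_v6_940_0_9. In *hippo (RNAi)* animals dd_Smed_v6_28968_0_1 was at 0.024 without libraries 266 to 269 and at -0.20 to 0.070 with single libraries left out. The causes were not tested. Other linkage distances, chosen after seeing the data, gave 4 sets with 39 members at 0.4 and 6 sets with 66 members at 0.6. No paired analysis was possible because libraries are numbered singly in the labels and share no replicate number between groups. TPM hold no read counts, so the depth that limits the low members is unknown.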
